A study of Mus musculus with 2 samples.

Results

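The 5 genes that encode the subunits of the interleukin 12 (IL-12) family, Il12a, Il12b, Il23a, Il27 and Ebi3, were examined in single-cell transcriptomes of mouse colon lamina propria. They were chosen by their symbols, and all 5 were among the 31053 features of each library. The single wild-type (WT) library was compared with the single knockout (KO) library of the long non-coding RNA labelled LncRNA17Rik, which the study calls lncLy6c and deleted by CRISPR-Cas9 in C57BL/6J mice. Cells carry the label cd11b+, were taken from a Percoll gradient and cleared of dead cells with 7-AAD, and came from a pool of 6 male mice aged 8 weeks, where it is not said whether the number is per genotype. The labels give both libraries the same protocol and name no treatment. The title of the WT sample carries letters that no label explains, so its group rests on the genotype label alone.

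The cytokines of this family are made of 2 chains each, and the chains are shared. Il12b pairs with Il12a in IL-12, which drives interferon gamma production by T cells and natural killer (NK) cells, and with Il23a in IL-23, which sustains type 17 T cells and interleukin 22 producing lymphocytes of the gut. Ebi3 pairs with Il27 in IL-27, which restrains and shapes T cell responses, and with Il12a in IL-35, described in regulatory lymphocytes. Dendritic cells (DCs), macrophages and monocytes are the known sources of the first 3 cytokines. In the intestine, IL-23 from myeloid cells is known for its part in host defence and colitis.

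The libraries held 3185 WT and 3020 KO barcodes, of which 2597 and 2514 passed the study's limits on detected genes and mitochondrial content. The median depth was 5073 WT and 6564 KO unique molecular identifiers (UMIs, 1 per captured transcript) per cell, so the KO library was the deeper. The libraries shared 1 barcode, and no barcode that passed the limits was shared. Cells were clustered without the 5 genes, and 20 of the 21 clusters were named from marker genes, in 13 classes. Classes other than the labelled CD11b+ myeloid cells were present, with 242 WT and 110 KO T cell-like, 200 and 85 B cell-like and 235 and 5 plasma cell-like cells. The 3 DC classes made up 14.6% of WT and 33.0% of KO cells. At least 80% of the cells came from 1 library in 7 clusters, so class boundaries and genotype cannot be fully told apart. With 1 library per genotype no test between genotypes was possible, and every interval below is a 95% interval that covers counting error only.

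The 5 genes lie on 5 chromosomes (GRCm38 coordinates of the GENCODE M21 annotation) and are protein coding. Il12b (ENSMUSG00000004296) spans chr11:44400063-44414033 on the plus strand, and Ebi3 (ENSMUSG00000003206) spans chr17:55952640-55957022 on the plus strand. Il23a (ENSMUSG00000025383) spans chr10:128296139-128298752 on the minus strand, Il27 (ENSMUSG00000044701) spans chr7:126589010-126594941 on the minus strand, and Il12a (ENSMUSG00000027776) spans chr3:68690644-68698547 on the plus strand. The promoters of the shared subunits Il12b and Ebi3, whose levels were both higher in KO DCs, are given from RefSeq (GRCm38.p6), from 250 bases before to 50 after the start, with motif matches in capitals. RefSeq promoters were matched for 3 of the 5 genes.
Il12b promoter, chr11:44399813-44400112, plus strand: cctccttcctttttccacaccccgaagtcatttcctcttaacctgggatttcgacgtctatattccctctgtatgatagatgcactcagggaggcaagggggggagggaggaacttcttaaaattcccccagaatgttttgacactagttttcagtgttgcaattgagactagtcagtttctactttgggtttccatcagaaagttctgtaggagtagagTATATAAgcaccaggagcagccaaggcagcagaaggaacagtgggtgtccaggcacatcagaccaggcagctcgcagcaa
Ebi3 promoter, chr17:55952373-55952672, plus strand: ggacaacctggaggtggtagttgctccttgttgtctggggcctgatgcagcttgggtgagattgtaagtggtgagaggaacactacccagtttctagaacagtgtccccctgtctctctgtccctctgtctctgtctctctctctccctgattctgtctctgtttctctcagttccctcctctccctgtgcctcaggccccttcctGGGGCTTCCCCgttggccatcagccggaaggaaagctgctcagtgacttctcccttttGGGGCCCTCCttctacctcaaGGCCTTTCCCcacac
The motifs searched on both strands were NF-kB (GGG and CC with 5 free bases between), IRF (a pair of GAAA with 2 free bases between), AP-1 (TGANTCA), PU.1 (GAGGAAG), C/EBP (TTGCNNAA) and the TATA box (TATANAA). The Il12b window held a TATA box match that began 30 bases before the start, and 11.3% of all 32851 promoters of this length held one. The Ebi3 window held NF-kB matches, the first 44 bases before the start, and 50.8% of all promoters held such a match. Overlapping matches run together in the capitals.

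Over all cells, Il12b, Il23a and Ebi3 were higher in the KO library, while Il12a and Il27 were scarce in both. Il12b had 202 UMIs in 27 WT cells and 1705 UMIs in 97 KO cells, or 10.6 UMIs per 1000000 UMIs of the same cells (CPM) (9.22 to 12.2) and 76.3 CPM (72.8 to 80.1), giving a log2 ratio of 2.84 (2.63 to 3.06). Il23a had 256 UMIs in 104 WT cells and 788 UMIs in 171 KO cells, which put the log2 ratio at 1.39 (1.18 to 1.60). Ebi3 had 567 UMIs in 369 WT cells and 1570 UMIs in 685 KO cells, for a log2 ratio of 1.24 (1.10 to 1.38). These 3 genes therefore differed between the libraries by more than the counting error. Il27 had 46 UMIs in 34 WT cells and 35 UMIs in 30 KO cells, and Il12a had 13 UMIs in 8 WT cells and 23 UMIs in 17 KO cells. The intervals of the log2 ratio included 0 for Il27, at -0.63 (-1.31 to 0.04), and for Il12a, at 0.59 (-0.45 to 1.69).

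Part of the pooled difference went with the makeup of the libraries. With the KO levels of each class weighted by the WT makeup, Il12b would be at 35.5 CPM, between the 10.6 CPM of the WT and the 76.3 CPM of the KO library. Il23a would be at 24.6 CPM, against 13.5 CPM among WT and 35.3 CPM among KO. Ebi3 would be at 33.8 CPM, close to the 29.9 CPM of WT and below the 70.3 CPM of KO. In the reverse weighting, of WT levels by the KO makeup, Il12b would be at 23.3, Il23a at 29.0 and Ebi3 at 54.9 CPM. These values rest in part on small classes. In the first weighting, 17 epithelial cell-like and 5 plasma cell-like KO cells take the weight of 123 and 235 WT cells. Il12b was at 59.25 CPM in the 17 KO cells, from 9 UMIs in 2 cells. The KO level of Il23a in the resident macrophage-like class, 136.5 CPM, depended on the clustering, as given below. The levels are therefore given within classes.

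**Figure D1:**
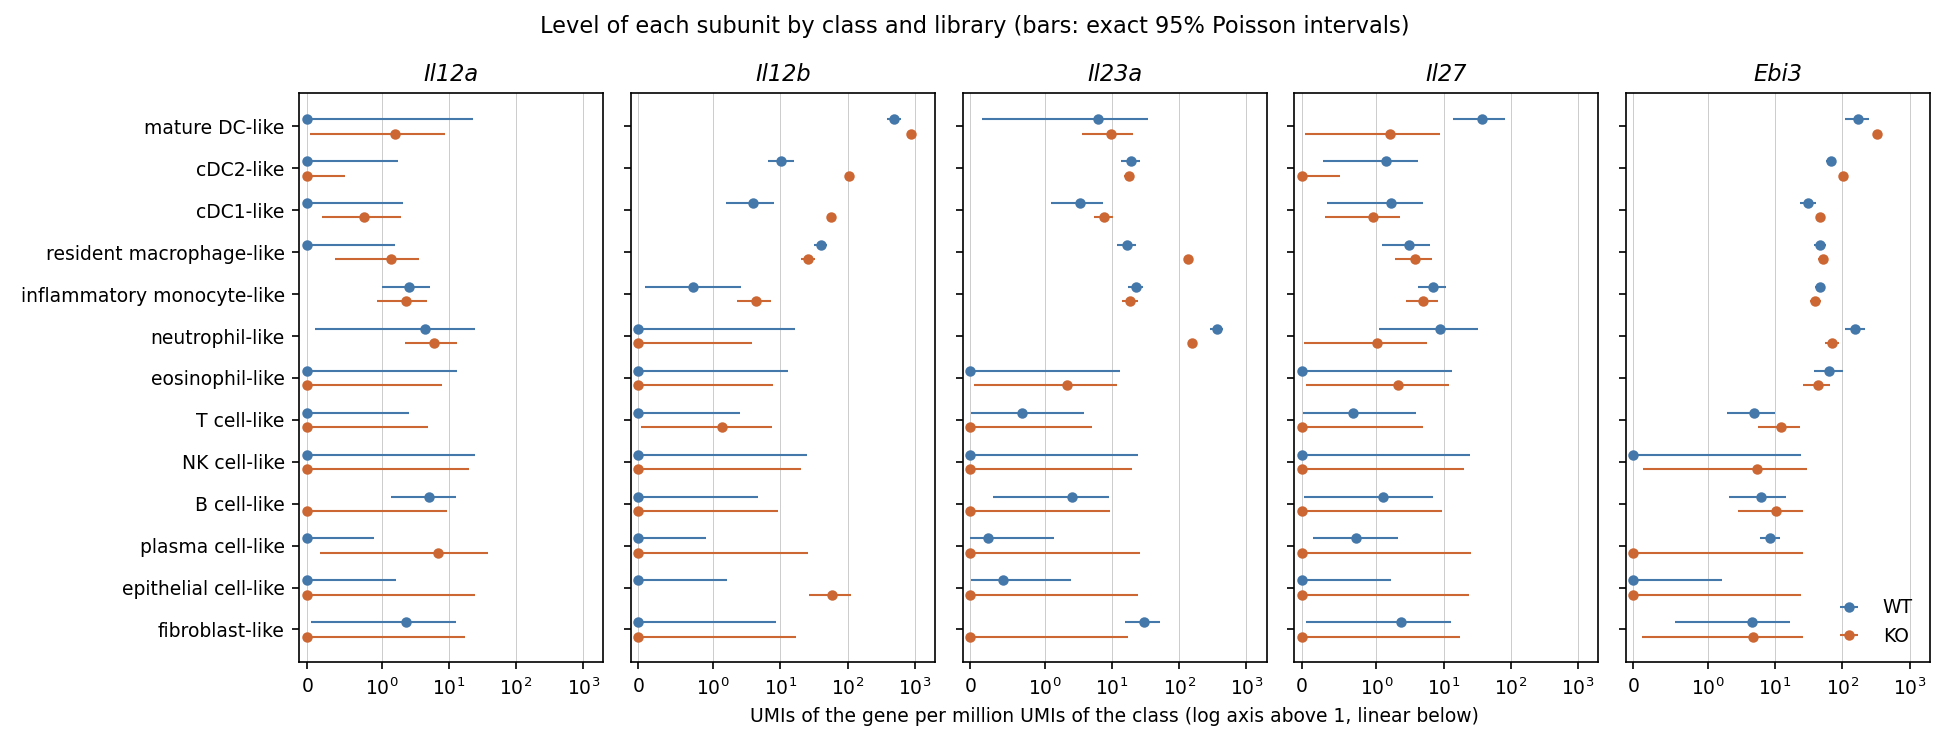
CPM of each subunit in the UMIs of the class (horizontal axis, logarithmic above 1 and linear below) in 13 classes of WT (blue) and KO (orange) cells, with exact Poisson 95% intervals as bars. Il12b and Ebi3 were highest in mature DC-like cells, at 893 and 327 CPM in KO, and Il23a was highest in neutrophil-like cells, at 365 CPM in WT.

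Il12b, the chain common to IL-12 and IL-23, lay almost wholly in DCs in the KO library, and in DCs and the resident macrophage-like class in WT. Mature DC-like cells, which express the migration receptor Ccr7 and the actin bundler Fscn1, had 79 UMIs in 7 of 19 WT cells and 557 UMIs in 23 of 40 KO cells. This was 494 CPM (391 to 615) among WT and 893 CPM (820 to 970.3) among KO, giving a log2 ratio of 0.85 (0.51 to 1.21), or a fold of 1.81. The WT value rested on few cells, since 1 cell held 44 of the 79 UMIs. Without the cell with the most UMIs in each library, the log2 ratio was 1.70. The markers of the class themselves stood apart between the libraries, with Ccr7 at 5456 CPM among WT and 2931 CPM among KO cells, Fscn1 at 2631 and 1448, and the chemokines Ccl22 at 3512 and 8378 and Ccl17 at 137.5 and 4022. Their part in the Il12b and Ebi3 differences was not tested. Il12b was itself among the top 10 genes of this cluster, although it was not used to build it.

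In cDC2-like cells, the conventional DCs that prime helper T cells, Il12b had 22 UMIs in 7 of 200 WT cells and 754 UMIs in 46 of 478 KO cells. The level was 10.4 CPM (6.50 to 15.7) among WT and 104 CPM (96.9 to 112) among KO, which put the log2 ratio at 3.33 (2.72 to 4.01). The positive WT cells held between 1 and 7 UMIs with a median of 2, and the positive KO cells held between 1 and 87 with a median of 7.5. Both the share of positive cells and the number of UMIs in each were thus higher in the KO library. Il12b was detected in 3.50% (1.42 to 7.08%) of the WT and in 9.62% (7.13 to 12.6%) of the KO cells, where the median cell held 10080 and 14540 UMIs. When every cell was thinned to 2000 UMIs, with 8 WT and 4 KO cells left out, the shares were 3.13% (1.16 to 6.68%) and 5.91% (3.96 to 8.43%), and these intervals overlap. At 1000 UMIs they were 0.508% (0.0129 to 2.80%), from 1 WT cell, and 4.61% (2.91 to 6.90%), from 22 KO cells, and do not overlap. The difference was present in both cDC2-like clusters. The cluster led by Cd209a and Mgl2 had 18 WT and 538 KO UMIs, for a log2 ratio of 2.58 (1.91 to 3.35). The cluster led by Plet1, with Itgae among its top genes, had 4 WT and 216 KO UMIs, giving a log2 ratio of 4.74 (3.36 to 6.63). Some markers of the class stood apart between WT and KO, with Mgl2 at 218 and 587 CPM, Plet1 at 313 and 141.5 and Ffar2 at 84.9 and 13.3. Clec10a was at 169 and 165 CPM. In cells without Il12b the 10 inflammatory monocyte markers summed to 1912 CPM in WT and 770 CPM in KO. The part of these markers in the result was not tested.

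In cDC1-like cells, which express Xcr1 and Clec9a and are known for cross-presentation to CD8 T cells, Il12b had 7 UMIs in 4 of 161 WT cells and 296 UMIs in 14 of 312 KO cells. The level was 3.90 CPM (1.57 to 8.04) among WT and 56.8 CPM (50.5 to 63.6) among KO, which put the log2 ratio at 3.86 (2.80 to 5.19). Of 9 alternatives 3 moved the ratio, to 1.96 at Leiden resolution 0.5, 2.48 at resolution 2 and 2.47 without the top Scrublet scores. A single KO cell held 195 of the 296 UMIs, or 65.9%, and without it the KO level was 19.5 CPM. The 8 neutrophil markers summed to 920 CPM in the KO cDC1-like cells with Il12b and to 112 CPM in those without it, with 2 markers at 0 in each, and the 8 cDC1 markers to 1930 and 1482 CPM. The part of the neutrophil markers in the result was not tested. Over the 3 DC classes together, Il12b was at 26.5 CPM (21.8 to 32.0) among WT and 122.9 CPM (117.0 to 129) among KO, for a log2 ratio of 2.21 (1.93 to 2.51). The DC classes held 53.5% of all WT and 94.25% of all KO Il12b UMIs.

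The resident macrophage-like class held 92 WT UMIs in 7 cells, or 40.0 CPM (32.2 to 49.0), and 75 KO UMIs in 7 cells, or 26.0 CPM (20.5 to 32.65). Its WT level was above those of cDC2-like and cDC1-like cells, and it held 45.5% of all WT Il12b UMIs, but this rested on few cells. Single WT cells held 48, 22 and 18 of the 92 UMIs, and the other positive cells 1 each. The share of positive WT cells was in the opposite order, at 1.57% in this class, 3.50% in cDC2-like and 2.48% in cDC1-like cells. The 7 KO cells with Il12b had resident macrophage markers at 3578 CPM, against 11630 CPM in those without it, and mature DC markers at 1644 and 482 CPM, with their part not tested. The remaining classes had little Il12b. Monocyte-like cells had 2 WT and 13 KO UMIs. Neutrophil-like cells had no UMI, and 0 of 277 KO cells allows up to 1.08% of cells with a UMI, a limit on detection in these shallow cells (median 3026 UMIs) and not on expression. B cell-like cells, which served as a background, had 0 of 200 WT and 0 of 85 KO cells with a UMI, which allows up to 1.50% and 3.53%, at median depths of 3000 and 4394 UMIs. The 9 UMIs of KO epithelial cell-like cells came from 2 cells whose summed mature DC markers were at 8922 CPM, against 71.2 CPM in the other 15 cells. Of those 10 markers 1 was at 0 in the 2 cells and 7 were at 0 in the other cells. Their part in the result was not tested.

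**Figure D2:**
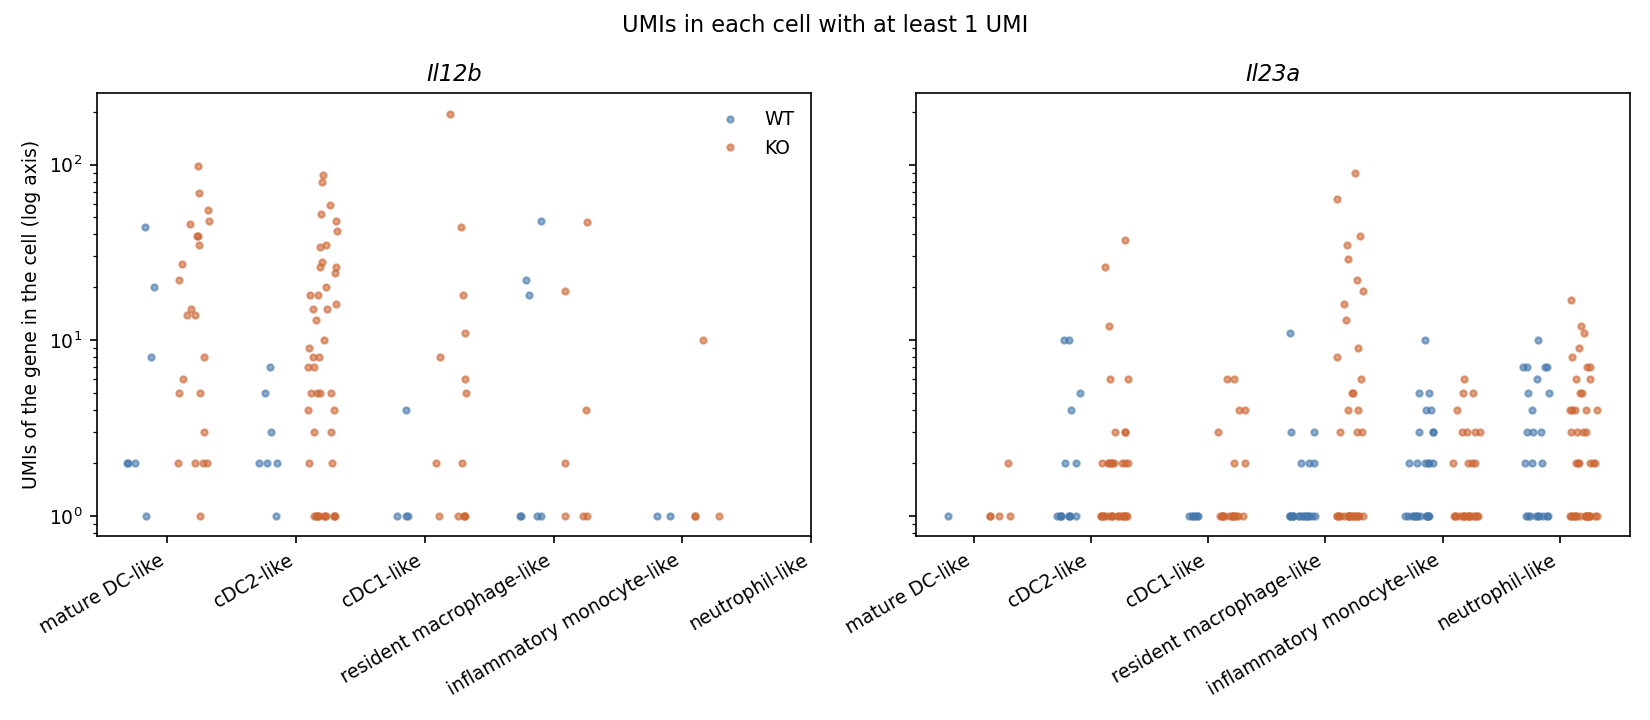
UMIs of Il12b (left) and Il23a (right) in each cell with at least 1 UMI (vertical axis, logarithmic), by class, with WT cells in blue and KO cells in orange and points spread sideways for legibility. Il12b reached 98 UMIs in a mature DC-like and 195 in a cDC1-like cell, and Il23a reached 89 UMIs in a KO cell of the resident macrophage-like class.

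Other genes were also read in KO cDC2-like cells with and without Il12b. The cells with Il12b had a median depth of 17320 UMIs and those without it 14320, and the part of depth was not tested. The 10 mature DC markers summed to 3572 CPM in the cells with Il12b and to 1483 CPM in the cells without it, with no marker at 0 in either. Of the 8 markers counted, 4 were at least 2-fold higher with Il12b and 0 lower, with a median log2 ratio of 1.25. The T cell-attracting chemokines Ccl22 and Ccl17 were at 576 and 1505 CPM with Il12b and at 178 and 389 CPM without it, log2 ratios of 1.70 (1.54 to 1.85) and 1.95 (1.85 to 2.05). Il6 was at 182 and 60.4 CPM, giving a log2 ratio of 1.59 (1.31 to 1.86). Of the 13 transcription factors listed, 1 was at least 2-fold higher with Il12b, the interferon regulatory factor Irf8, at 95.5 against 31.4 CPM. The median log2 ratio of the 13 was -0.01. The share of all genes past 2-fold in this split is not given, so nothing is concluded from these counts. Cells of 1 library are not replicates, so these values describe the KO library.

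Ebi3, the chain common to IL-27 and IL-35, was the most widely detected subunit. It was highest in mature DC-like cells, with 27 UMIs in 7 of 19 WT cells and 204 UMIs in 27 of 40 KO cells, or 169 CPM (111 to 245.5) and 327 CPM (284 to 375), which put the log2 ratio at 0.95 (0.37 to 1.59). In cDC2-like cells it had 143 UMIs in 79 WT cells and 749 UMIs in 272 KO cells, or 67.4 CPM (56.8 to 79.5) and 103.5 CPM (96.2 to 111), for a log2 ratio of 0.62 (0.36 to 0.89). In cDC1-like cells it was at 31.2 CPM (23.6 to 40.5) and 46.8 CPM (41.1 to 53.1), giving a log2 ratio of 0.58 (0.16 to 1.03). The intervals of all 3 DC classes excluded 0, but those of single clusters did not always. Ebi3 had a log2 ratio of 0.94 (0.54 to 1.36) in the cDC2-like cluster led by Cd209a and 0.23 (-0.14 to 0.61) in the one led by Plet1. Among cDC1-like cells it was 1.71 (0.69 to 2.96) in the cluster led by the cell cycle gene Pclaf, from 8 WT and 132 KO UMIs, and 0.15 (-0.35 to 0.67) in the larger cluster led by Xcr1. The KO to WT differences of Ebi3 were smaller than those of Il12b in cDC2-like and cDC1-like cells, whose intervals did not overlap between the genes, but in cDC1-like cells the intervals overlapped under 3 of the 9 alternatives. They also overlapped in the Pclaf cluster, where the Il12b ratio was 2.01 (0.60 to 3.92).

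Neutrophil-like cells had Ebi3 in the opposite order, at 156 CPM (109 to 217) with 35 WT UMIs and 70.35 CPM (54.7 to 89.0) with 69 KO UMIs, which put the log2 ratio at -1.15 (-1.76 to -0.52). The share of neutrophil-like cells with a UMI was 22.6% in WT and 21.3% in KO, and positive cells held up to 6 UMIs in WT and up to 2 in KO. Resident macrophage-like cells, at 46.9 and 51.1 CPM, and inflammatory monocyte-like cells, at 47.3 and 39.8 CPM, had log2 ratios of 0.12 (-0.25 to 0.49) and -0.25 (-0.62 to 0.12). Eosinophil-like cells, a class whose defining marker Epx was at 0 in both libraries, were at 64.4 and 42.8 CPM from 18 and 20 UMIs. T cell-like cells were at 4.84 and 12.2 CPM, and the share of B cell-like cells with an Ebi3 UMI was 2.50% in WT and 4.71% in KO. The WT plasma cell-like class, at a median of 17790 UMIs per cell, had a share of 11.5%. With cells thinned to 2000 UMIs, the DC, macrophage, monocyte and neutrophil shares lay between 6.77 and 35.9%, and those of B, T and plasma cell-like cells between 0 and 1.35%.

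**Figure D3:**
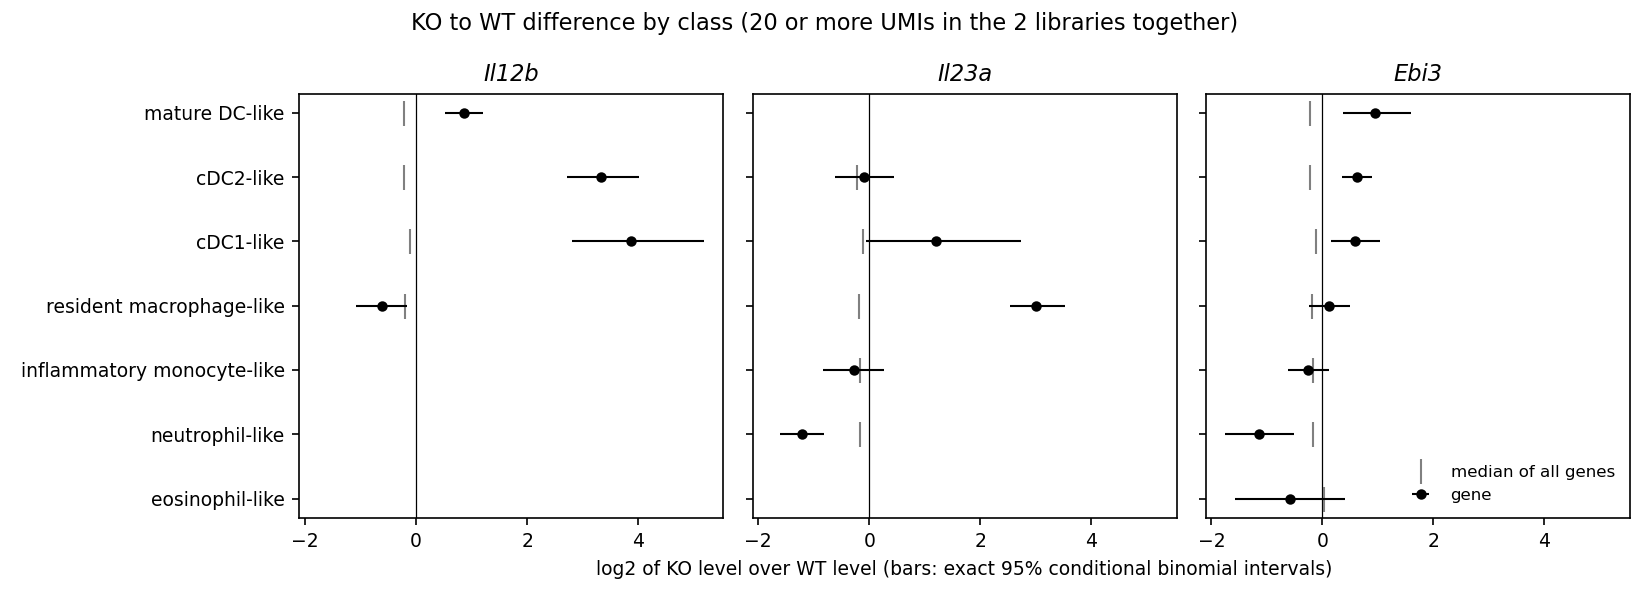
KO to WT log2 ratio (horizontal axis) of Il12b, Il23a and Ebi3 in each class with at least 20 UMIs of the gene over both libraries and a UMI in each, with exact conditional binomial 95% intervals as bars and grey ticks at the median ratio of all genes of the class. Ebi3 in plasma cell-like cells, with 35 WT and 0 KO UMIs, has no ratio and is not drawn. Il12b and Ebi3 lay above 0 in the 3 DC-like classes, and Il23a and Ebi3 lay below 0 in neutrophil-like cells, at -1.22 and -1.15.

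Il23a, the chain particular to IL-23, was found mainly outside the DCs, which held 18.75% of its WT and 22.5% of its KO UMIs. Neutrophil-like cells, which express S100a8 and S100a9, had 82 UMIs in 24 of 84 WT cells and 154 UMIs in 43 of 277 KO cells. The level was 365 CPM (290.5 to 453) among WT and 157 CPM (133 to 184) among KO, for a log2 ratio of -1.22 (-1.61 to -0.81). The positive cells held between 1 and 10 UMIs in WT, with a median of 2.5, and between 1 and 17 in KO, with a median of 2. Il23a was detected in 28.6% (19.2 to 39.5%) of the WT and in 15.5% (11.5 to 20.3%) of the KO neutrophils of this class although the median WT cell was shallower (2303 and 3026 UMIs). Summed neutrophil markers were at 40280 CPM among WT and 70050 CPM among KO neutrophil-like cells, with none at 0. In both libraries 1 of the 8 markers was at 0 among the cells with Il23a. Within WT they were at 19600 CPM in cells with Il23a and 50100 CPM in cells without it, and within KO at 50080 and 73610 CPM. Resident macrophage markers summed to 1231 CPM with and 1143 CPM without Il23a in WT, and to 593 and 608 CPM in KO. The cDC2 markers summed to 567 and 223 CPM in WT and to 87.6 and 60.1 CPM in KO. The part of these markers in the result was not tested. Tnf, a cytokine of activated myeloid cells, was higher in neutrophil-like cells with Il23a in both libraries, at log2 ratios of 1.86 (1.44 to 2.29) in WT and 1.83 (1.60 to 2.06) in KO.

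In the resident macrophage-like class, Il23a had 39 UMIs in 22 of 446 WT cells and 393 UMIs in 36 of 289 KO cells, or 16.9 CPM (12.1 to 23.2) and 136.5 CPM (123 to 151), giving a log2 ratio of 3.01 (2.53 to 3.52). This value depended on which cells carry the class name, and 404 of the WT cells were in another cluster, led by C1qa. Of the KO UMIs, 364 lay in a single cluster of 42 WT and 255 KO cells with Pf4 and Retnla as its top genes, where the log2 ratio was 1.27 (0.51 to 2.16) from 14 WT and 364 KO UMIs. A single WT cell held 11 of the 14, and without the top cell of each library the ratio was 3.04. In a finer clustering, whose use to divide this cluster was chosen after the data had been seen, 91 of these KO cells were named resident macrophage-like and 163 stayed unnamed. The unnamed cells held 355 Il23a UMIs in 30 cells, or 190 CPM (171 to 211), and the resident macrophage-like cells held 9 UMIs in 5 cells, or 11.6 CPM (5.30 to 22.0). Most KO Il23a UMIs of this cluster were thus in cells that the finer clustering set apart from resident macrophages. Of the 14 WT UMIs, 12 were in cells that it named resident macrophage-like.

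The unnamed cells had fewer macrophage and more monocyte transcripts. The 10 resident macrophage markers summed to 4837 CPM in the unnamed and 21310 CPM in the resident KO cells, the 10 inflammatory monocyte markers to 2642 and 213 CPM, and the 10 mature DC markers to 663 and 225.5 CPM. The lipoprotein gene Apoe was at 1835 and 11930 CPM, and the complement gene C1qa at 806 and 2769 CPM. Fn1, the matrix protein fibronectin, was at 1326 CPM in the unnamed and 16.75 CPM in the resident cells, and Plac8, a gene of blood monocytes, at 360 and 12.9 CPM. Ccr7, the DC migration receptor, was at 221 and 15.5 CPM. The same unnamed cells held 74 of the 75 KO Il12b UMIs of the class, in 6 cells, while the 91 resident cells held none. In WT the order was the reverse, on few cells. Only 18 WT cells were in the unnamed group, with 2 Il23a UMIs, or 14.4 CPM (1.75 to 52.1), and 0 Il12b UMIs. The 24 WT cells named resident macrophage-like held 12 Il23a UMIs in 2 cells, or 109 CPM (56.5 to 191), of which 1 cell held 11. They also held 48 Il12b UMIs, all in 1 cell.

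**Figure D4:**
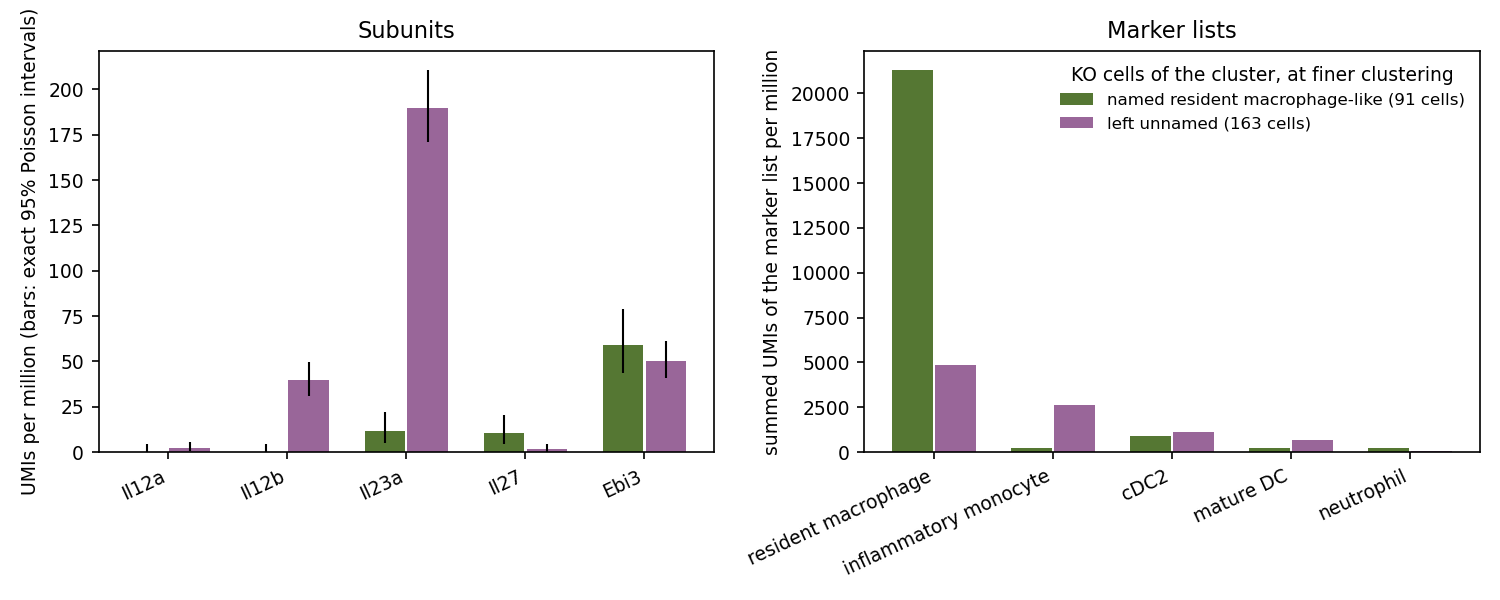
CPM of the 5 subunits (left, with exact Poisson 95% intervals) and summed CPM of marker lists (right) in KO cells of the Pf4 and Retnla cluster, divided by a finer clustering into 91 cells named resident macrophage-like (green) and 163 cells left unnamed (purple). Il23a was at 190 CPM in the unnamed and 11.6 CPM in the resident macrophage-like cells, and resident macrophage markers were lower in the unnamed cells.

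Under 6 of the 7 other clusterings most Il23a UMIs of these KO cells left the resident macrophage-like class, and the log2 ratio of that class ranged from 0.43 to 3.12 over all alternatives. With monocyte-like cells added, the ratio was 1.93 (1.61 to 2.26), but its interval included 0 under 6 of the 9 alternatives, with values from -0.15 (-0.75 to 0.48) to 0.36 (-0.03 to 0.75) among these. The ratio of the resident macrophage-like class itself was above 0 under all 9 alternatives, and its interval excluded 0 under 8. Where the cells of the Pf4 and Retnla cluster left, the class held between 35 and 55 KO UMIs, and a single KO cell of the C1qa cluster held 29. The size of the Il23a difference in resident macrophages was thus set by the clustering and by few cells. The Il12b ratio of the class was -0.62 (-1.08 to -0.16) from 92 WT and 75 KO UMIs. Its KO UMIs lay mostly in the same KO cells, and a WT cell held 48 and a KO cell 47 UMIs. Over 8 alternatives this ratio ranged from -5.63 to -0.62. The lowest, with every deposited barcode, came from 90 WT and 1 KO UMIs.

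Il23a as a class level did not differ beyond counting error in cDC2-like cells, at 19.3 CPM among WT and 18.1 CPM among KO, which put the log2 ratio at -0.10 (-0.61 to 0.45), or in inflammatory monocyte-like cells, at 22.6 and 18.6 CPM, for a log2 ratio of -0.28 (-0.83 to 0.26). The interval for monocyte-like cells runs from a KO to WT fold of 0.563 to 1.20. Most WT monocyte-like cells (384) were in a cluster led by Ly6i and Cxcl9 and most KO cells (252) in one led by Chil3 and Ace. Within the first of these Il23a was at 23.7 CPM among WT and 42.7 CPM among KO cells, with the log2 ratio at 0.85 (0.05 to 1.59) from 57 and 21 UMIs, opposite in sign to that of the class. The second held 0 WT and 28 KO UMIs, and no direction is drawn for the class. In cDC2-like cells the ratio was 1.70 at Leiden resolution 0.5, where the Il23a-rich cells described above joined that class. In cDC1-like cells it was at 3.35 and 7.67 CPM from 6 and 40 UMIs. All 13 UMIs of WT fibroblast-like cells came from 1 cell.

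Il27, the partner of Ebi3, was detected in 34 WT and 30 KO cells. In inflammatory monocyte-like cells, its leading class among those with at least 20 cells, it had 19 UMIs in 14 of 434 WT cells and 15 UMIs in 12 of 359 KO cells, or 6.92 CPM (4.16 to 10.8) and 4.97 CPM (2.78 to 8.20), giving a log2 ratio of -0.48 (-1.56 to 0.58). A single WT cell held 6 of the 19 UMIs. Resident macrophage-like cells had 7 WT and 11 KO UMIs. The 6 UMIs of WT mature DC-like cells came from 2 cells, of which 1 held 5, and KO mature DC-like cells had 1 UMI. Over the 3 DC classes Il27 was at 2.95 CPM (1.52 to 5.15) from 12 WT UMIs and at 0.459 CPM (0.168 to 0.999) from 6 KO UMIs, which together are under 20 UMIs, so no ratio is read. Without the top cell of each library the ratio in monocyte-like cells was -0.25 (-1.51 to 1.00). With each library clustered alone it was -1.63 (-3.27 to -0.22), from 17 WT and 6 KO UMIs, an interval that excludes 0. The ratio thus depended on the clustering, and no direction is drawn.

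Il12a, the partner of Il12b in IL-12 and of Ebi3 in IL-35, was the scarcest subunit, found in 8 WT and 17 KO cells. In WT, 7 of the 13 UMIs were in 3 monocyte-like cells and 4 in 3 B cell-like cells. In KO, 6 of the 23 UMIs were in 6 neutrophil-like cells, 7 in 4 monocyte-like cells, 4 in 4 cDC1-like cells and 4 in a single cell of the resident macrophage-like class. No cDC2-like cell had a UMI, and 0 of 478 KO cells allows up to 0.628% of cells with a UMI, which limits detection and not expression. No class reached 20 UMIs over both libraries, so no ratio is read for Il12a.

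Both chains of a cytokine were rarely captured in the same cell. The IL-12 pair was found in 0 of 2597 WT cells, which allows up to 0.116%, and in 3 of 2514 KO cells, or 0.119% (0.0246 to 0.348%). All 3 were cDC1-like and held 195, 44 and 2 Il12b UMIs with 1 Il12a UMI each. At Leiden resolution 2, and without the top Scrublet scores, the KO cDC1-like class held 101 in place of 296 Il12b UMIs, a difference the size of the leading cell. The cell with the highest Il12b count of either library was thus among them. The IL-23 pair was found in 3 WT and 17 KO cells, of which 7 were cDC2-like, 4 mature DC-like, and 2 each cDC1-like, monocyte-like and of the resident macrophage-like class. Among KO cDC2-like cells, Il23a was detected in 15.2% of the 46 cells with Il12b and in 6.25% of the cells without it. The level of Il23a was 59.4 CPM with Il12b and 12.5 CPM without it, which put the log2 ratio at 2.24 (1.71 to 2.77). The pair cells were deep, with a median of 28460 UMIs against 14320 in cells without Il12b, and the part of depth in the shares was not tested.

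The IL-27 pair was found in 15 WT and 13 KO cells, 6 and 5 of them monocyte-like. The IL-35 pair was found in 1 WT and 8 KO cells, spread over 5 KO classes. The 3 KO cDC1-like cells of the IL-35 pair were those of the IL-12 pair, since each held Il12a, Il12b and Ebi3. With 2 UMIs required of each chain, the counts were 0 for IL-12 in both libraries, 2 WT and 9 KO for IL-23, 1 WT and 0 KO for IL-27 and 0 for IL-35 in both. Capture of RNA from both genes in a cell does not show that the cytokine was made.

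**Figure D5:**
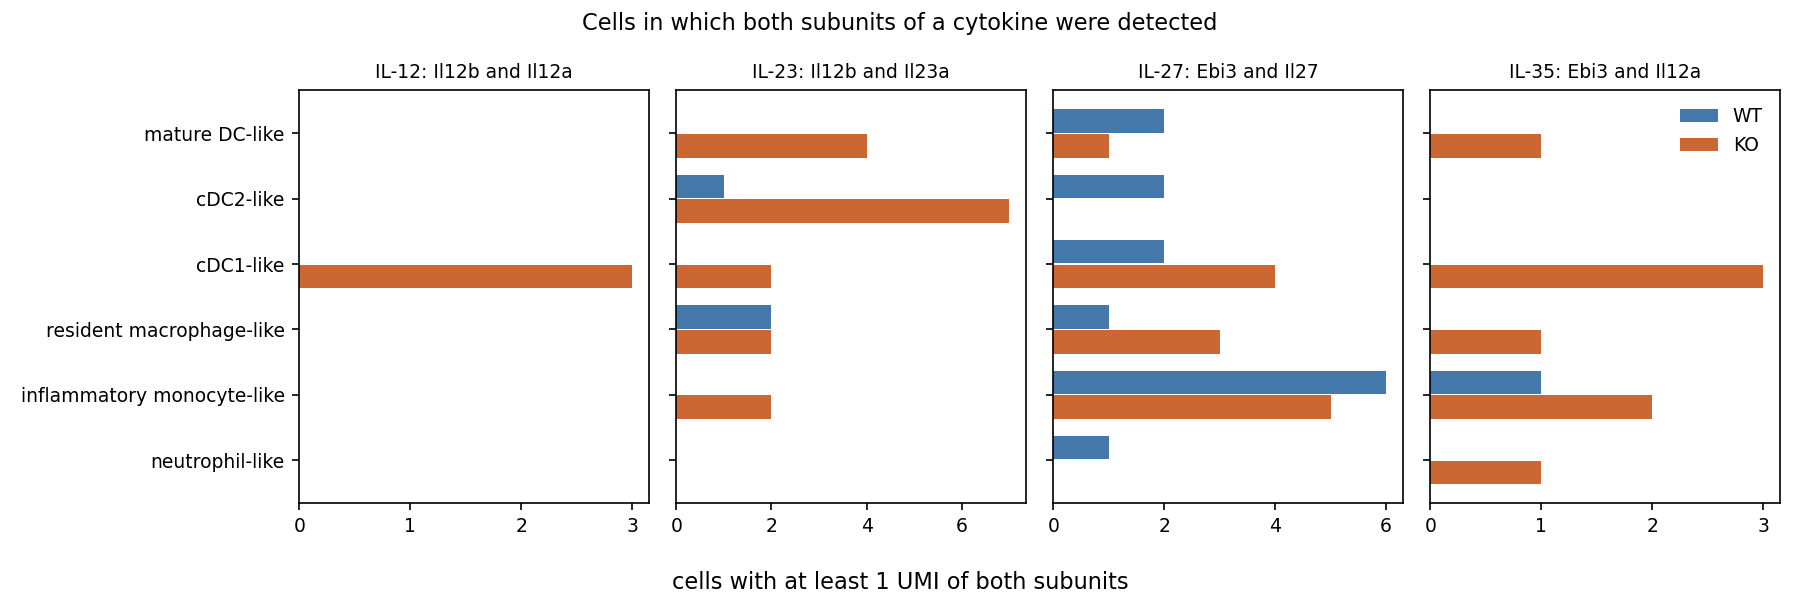
Number of cells (horizontal axis) with at least 1 UMI of both subunits of IL-12, IL-23, IL-27 and IL-35 in 6 classes, with WT in blue and KO in orange; 1 further WT cell with the IL-27 pair was plasma cell-like. The 3 cells with the IL-12 pair were KO cDC1-like cells, and 7 of the 17 KO cells with the IL-23 pair were cDC2-like.

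The subunits were set against all genes that reached 20 UMIs in a class, WT and KO together, counting a difference of at least 2-fold. In cDC2-like cells 1 of 3 subunits (Il12b) was at least 2-fold higher in KO and 0 lower, where 5.04% of all genes were higher and 9.06% lower. In cDC1-like cells 2 of 3 (Il12b and Il23a) were higher and 0 lower, against 3.9% and 3.93% of all genes. The Il23a interval in cDC1-like cells, 1.20 (-0.05 to 2.73), included 0. In mature DC-like cells 0 of 2 were past 2-fold, against 8.36% higher and 16.6% lower, although relative to the median of all genes, -0.23, both were, at 1.08 for Il12b and 1.18 for Ebi3. In neutrophil-like cells 2 of 2 (Il23a and Ebi3) were at least 2-fold lower and 0 higher, against 13.3% lower and 6.99% higher. In the resident macrophage-like class 1 of 3 (Il23a) was higher and 0 lower, against 4.71% and 8.83%. In inflammatory monocyte-like cells 0 of 3 were past 2-fold, against 3.28% higher and 8.94% lower. Over all genes the median log2 ratio lay below 0 in these classes, at -0.11 in cDC1-like and -0.22 in cDC2-like cells, and relative to it the DC differences of Il12b and Ebi3 were larger than those given. In neutrophil-like cells the differences relative to the median of -0.17 were smaller, at -1.05 for Il23a and -0.98 for Ebi3, so that Ebi3 was then no longer 2-fold lower.

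The wider pathway was then examined through 56 genes in 7 lists. In cDC2-like cells 43 of them were counted, of which 0 were at least 2-fold higher and 6 lower in KO. In cDC1-like cells 42 were counted, with 0 higher and 1 lower. Of 32 counted in mature DC-like cells 1 was higher and 6 were lower, and of 33 in neutrophil-like cells 2 were higher and 5 lower. Over all genes the lower shares were 9.06% in cDC2-like, 3.93% in cDC1-like, 16.6% in mature DC-like and 13.3% in neutrophil-like cells, and the counts for mature DC-like and neutrophil-like cells lie near them. Of the 13 transcription factors, none was past 2-fold in cDC2-like or cDC1-like cells. In mature DC-like cells 1 of the 13 was lower and 0 were higher, where 16.6% of all genes were lower. It was Irf8, known to act on the Il12b promoter, at 819 CPM among WT and 220 CPM among KO, a log2 ratio of -1.90 (-2.25 to -1.54). In the same class Il10, an inhibitor of Il12b induction, had 3 WT and 58 KO UMIs, and Il6 was at 437.5 and 46.5 CPM, for a log2 ratio of -3.23 (-3.91 to -2.59). The part of these genes in the Il12b difference was not tested.

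The receptor chains were read in lymphocytes, where few cells were available. Il12rb2, the signalling chain of the IL-12 receptor, was at 126 CPM among WT and 174 CPM among KO NK cell-like cells, from 26 and 41 cells, giving a log2 ratio of 0.46 (-0.40 to 1.37). In T cell-like cells, 242 in WT and 110 in KO, Il12rb2 was at 42.1 and 21.7 CPM, which put the log2 ratio at -0.96 (-1.85 to -0.15), and Il12rb1, which serves both IL-12 and IL-23, at 35.9 and 13.5 CPM, for a log2 ratio of -1.41 (-2.55 to -0.42). Il23r, the chain particular to the IL-23 receptor, had 0 UMIs in WT T cell-like cells, which allows a share of up to 1.24%, and 12 UMIs in 8.18% of KO T cell-like cells. Il27ra was at 29.0 and 29.8 CPM in these cells. Il6st, the chain through which IL-27 signals together with Il27ra, was broadly present and highest in fibroblast-like cells, at 227 CPM among WT and 216 CPM among KO.

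Products known to lie downstream of IL-12 and IL-23 were read in NK cell-like and T cell-like cells. Ifng, the interferon induced by IL-12, was at 438 CPM among WT and 1219 CPM among KO NK cell-like cells, with the log2 ratio at 1.48 (1.07 to 1.89), and at 180 and 37.9 CPM in T cell-like cells, which put the log2 ratio at -2.25 (-2.87 to -1.69). Tbx21, the transcription factor of type 1 T cells, was at 139.5 and 18.95 CPM in T cell-like cells, for a log2 ratio of -2.88 (-3.78 to -2.10). Il22, induced by IL-23, was at 29.0 CPM in 2.48% of WT and 101.5 CPM in 7.27% of KO T cell-like cells, and Il17a was at 40.8 and 16.2 CPM. The makeup of the T cell-like class differed, with 169 WT and 63 KO cells in a cluster led by Gzma and 73 WT and 47 KO cells in one led by Icos. Cd8a was at 260 CPM in 37.6% of WT and at 28.4 CPM in 10.9% of KO T cell-like cells, and Cd4 at 55.3 and 77.2 CPM. The part of this makeup in the values was not tested.

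Likeness of pattern was measured by Pearson correlation of log levels over 20 units of class and library, among 9485 genes with at least 200 UMIs. The units share libraries, so the values are descriptions. Il23a was most like Gpr84 (0.90), Clec4n (0.86) and Casp4 (0.85), and Ebi3 most like Csf2rb (0.93), Mthfsl (0.92) and Bcl2a1a (0.92). Il12b was most like Macc1 (0.86), Timd4 (0.86) and Cd209b (0.85), genes with between 209 and 576 UMIs in all. Il27 was most like Tmem106a (0.84) and Il12a most like Hp (0.83), on few UMIs of the subunits.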

How the data were processed

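Single-cell 3' libraries of 1 WT and 1 KO sample were analysed. The files deposited by the authors hold unnormalised UMI counts for each gene and barcode, from Cell Ranger 3.0.2 per the file headers; the submitters' processing notes name mm10 and Seurat 4. The study states more cells per library than the deposited barcodes, and the deleted gene was not checked here. Cells with 200 to 6000 genes and at most 15% mitochondrial UMIs were kept (the study's limits), normalised, log-transformed and clustered with 2000 variable genes, 30 principal components, 15 neighbours and Leiden resolution 1 (scanpy 1.11.5, scikit-learn 1.9.0, leidenalg 0.10.2, scipy 1.17.1, Python 3.11.15). A class needed at least 3 of its markers raised 2-fold (prior of 10 CPM) in 10% of cells. UMIs were summed per class and library. CPM have exact Poisson, shares Clopper-Pearson and KO to WT ratios conditional binomial 95% intervals, and a count of 0 allows 3 counts. Intervals cover counting error only. Ratios were read from 20 UMIs over both libraries, and leading classes from 20 cells in each. Cells were also thinned to 2000 and 1000 UMIs. No doublet caller was used in the main analysis. Only the KO to WT ratio and its interval were tested on simulated data. Those counts were Poisson totals per library, without the uneven spread of UMIs over cells seen here. Members, lists, motifs and named genes (the members, listed pathway genes past 2-fold or of the receptors and products, and the most alike genes) were chosen with earlier results of these data known. Alternatives were a stricter filter (500 genes, 10%), every barcode, Leiden resolutions 0.5 and 2, 4000 variable genes, each library alone, removal of the top 3% of Scrublet scores, and CPM without mitochondrial and immunoglobulin UMIs. 1 listed pathway gene is not reported here.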

Additional observations from a re-analysis of the deposited data

Results flagged for a closer look

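KO to WT log2 ratios with counting intervals on opposite sides of 0 in different classes drew attention for Ebi3, Il12b and Il23a. The differences between classes were not tested, because 1 library per genotype leaves no replicates. For Ebi3 the ratio in neutrophil-like cells was -1.15, and the difference from it was 1.73 in cDC1-like, 1.77 in cDC2-like and 2.10 in mature DC-like cells. For Il12b the ratio in the resident macrophage-like class was -0.62, and the difference from it was 4.48 in cDC1-like, 3.95 in cDC2-like and 1.47 in mature DC-like cells. For Il23a the ratio was 3.01 in the resident macrophage-like class and -1.22 in neutrophil-like cells, a difference of 4.23. The opposite signs were kept under all alternatives that gave a value. The KO values of the resident macrophage-like class, however, rest on cells that most other clusterings set apart. The sizes of the Il12b and Il23a differences therefore hold for the clustering reported.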

How the results depend on the processing

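No paired analysis was possible because each genotype has 1 library. Over 9 alternatives, Il12b in the 3 DC classes together kept its direction, from 1.87 to 2.78 on the log2 scale, as did Ebi3, from 0.67 to 0.77. Il23a in neutrophil-like cells ranged from -1.29 to -1.02 and Ebi3 there from -1.24 to -0.72. Il12b ranged from 3.14 to 6.25 in cDC2-like cells (6.25 with each library clustered alone), from 1.96 to 4.03 in cDC1-like cells, from 0.49 to 1.70 in mature DC-like cells and, over 8 alternatives, from -5.63 to -0.62 in the resident macrophage-like class. Ebi3 ranged from 0.48 to 0.81 in cDC2-like, from 0.57 to 1.72 in cDC1-like and from 0.80 to 1.40 in mature DC-like cells. Il23a in macrophage-like and monocyte-like cells together fell from 1.93 to -0.15 with 4000 variable genes, where the Il23a-rich cells left these classes. Il27 in monocyte-like cells ranged up to 0.16 and was -2.08 with the stricter filter, -2.44 at Leiden resolution 0.5, -2.48 with 4000 variable genes (each on 8 WT and 10 KO UMIs, too few to be read) and -1.63 with each library alone; the cause was not tested. With 2 UMIs required of each chain, and after thinning to 2000 UMIs, KO cells with the IL-12 pair numbered 0 and 0, with the IL-23 pair 9 and 5, with the IL-27 pair 0 and 0 and with the IL-35 pair 0 and 2. WT cells with the IL-27 pair numbered 1 and 0, and with the IL-35 pair 0 and 0. Of 10 shares of positive cells, 6 moved beyond their interval at 2000 UMIs and 9 at 1000 UMIs. Scrublet called 1 WT and 9 KO cells, too few to have worked. The alternatives for pooled classes, for mature DC-like, cDC1-like and resident macrophage-like cells, for Il23a in cDC2-like and Ebi3 in neutrophil-like cells, and the removal of the top cell, were added after the data had been seen. Il12a and Il27 are limited by their few UMIs.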

Other observations

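Beyond the comparisons above, Il22 was also counted in a DC class. The WT cDC2-like class held 84 Il22 UMIs in 1.00% of its 200 cells, and the KO class held 4 UMIs in 0.628% of 478 cells. Among WT cDC2-like cells, 83 of the UMIs were in cells with Ebi3. Whether these few cells were doublets with lymphocytes was not tested. In NK cell-like cells Il18rap, a chain of the interleukin 18 receptor, reached 199 CPM among WT and 604 CPM among KO cells, with the log2 ratio at 1.60 (1.01 to 2.23), in the same direction as Ifng there.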
